A study of Mus musculus with 4 samples.

Results

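Olfactory receptor genes (symbols Olfr and a number) form the largest gene family of the mouse, and 153 of the 11085 peaks that an ELF1 antibody gave in macrophages carried the name of one. A peak was chosen by its gene names: it lay on chromosomes 1 to 19, and its nearest gene or a gene feature it touched had a symbol starting with Olfr and a digit. This selected 75 of 5526 peaks in the wild-type (WT) list and 78 of 5559 in the Elf1 knockout (KO) list. The choice was made on the peaks themselves, so these counts describe the members and test nothing.

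The ETS-family transcription factor ELF1 was mapped with ChIP-seq, in which chromatin is immunoprecipitated and its DNA sequenced, in bone marrow-derived macrophages (BMDM), phagocytes grown from marrow in culture. The cells came from WT or Elf1 KO mice, and both genotypes had received lipopolysaccharide (LPS), a bacterial cell wall component, for 6 h to reach the inflammatory M1 state. Each genotype gave 1 library of anti-ELF1 immunoprecipitate (IP) and 1 input library, 4 samples in all, and the compared groups are the peak lists of the IP libraries. The labels give no sex, strain, age or number of mice, and no untreated cells. A peak list measures neither transcript nor protein, so the genotype and the cell type rest on the labels. With 1 library per genotype no difference between WT and KO has a replicate check, no p-value was computed, and the intervals cover counting error only.

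An olfactory receptor is a G protein-coupled receptor that sits in the cilia of an olfactory sensory neuron and binds odorants. Each such neuron expresses a single allele of a single receptor gene, while the other copies stay packed in silent heterochromatin, and cells outside the nose keep most of the family silent. The genes lie in tandem clusters on most chromosomes, have short coding regions in a single exon, and include many pseudogenes. The fish-like class I receptors share a cluster on chromosome 7, in the region of the beta-globin genes, and the class II receptors fill the other clusters. Homeodomain factors (LHX2) and EBF factors bind the promoters and enhancers of these genes in olfactory neurons.

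The sequences under the strongest peaks are given first, with the ETS cores that each holds. ETS factors bind a GGAA core, and ELF1 is known to prefer the longer CCGGAAGT. The windows are the 201 bases centred on the peak midpoint, plus strand of GRCm38, with every GGAA core or its complement TTCC in capitals. First come the peaks with an authors' q below 0.05, of which the WT list held 4 and the KO list 2:
Olfr881, WT list, chr9:37981098-37981298: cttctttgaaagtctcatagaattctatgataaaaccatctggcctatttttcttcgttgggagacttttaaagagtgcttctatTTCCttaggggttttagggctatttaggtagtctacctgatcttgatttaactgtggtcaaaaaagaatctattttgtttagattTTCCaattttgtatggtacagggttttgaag
Olfr267, WT list, chr4:58791352-58791552: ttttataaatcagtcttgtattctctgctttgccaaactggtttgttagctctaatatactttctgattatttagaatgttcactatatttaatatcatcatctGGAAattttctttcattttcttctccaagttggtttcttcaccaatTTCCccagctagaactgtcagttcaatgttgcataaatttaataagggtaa
Olfr289-ps1, WT list, chr3:6730009-6730209: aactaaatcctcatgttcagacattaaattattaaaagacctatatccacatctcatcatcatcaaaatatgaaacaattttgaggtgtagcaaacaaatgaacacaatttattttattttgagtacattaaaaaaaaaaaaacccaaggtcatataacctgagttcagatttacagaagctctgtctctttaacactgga
Olfr965, WT list, chr9:39712316-39712516: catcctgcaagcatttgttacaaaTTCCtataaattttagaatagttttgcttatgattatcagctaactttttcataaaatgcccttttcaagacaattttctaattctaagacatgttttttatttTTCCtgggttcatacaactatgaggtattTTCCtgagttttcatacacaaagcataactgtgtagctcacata
Olfr821, KO list, chr10:130039656-130039856: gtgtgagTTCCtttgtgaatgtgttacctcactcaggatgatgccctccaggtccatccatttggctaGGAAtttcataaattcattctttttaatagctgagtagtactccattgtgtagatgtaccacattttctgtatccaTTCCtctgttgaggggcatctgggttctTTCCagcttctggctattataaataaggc
Olfr1331, KO list, chr4:118874093-118874293: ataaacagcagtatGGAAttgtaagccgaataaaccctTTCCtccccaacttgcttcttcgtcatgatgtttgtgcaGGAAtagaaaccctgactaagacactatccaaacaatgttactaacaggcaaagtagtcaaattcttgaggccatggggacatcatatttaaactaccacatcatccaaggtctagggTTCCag
Olfr289-ps1 has no GGAA core in its window, Olfr881 and Olfr267 have 2 each, Olfr965 has 3, and the KO windows of Olfr821 and Olfr1331 have 4 each. The Olfr821 window is 100% soft-masked, which means that the reference marks it as repeat. None of the 6 holds CCGGAAGT.

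The peaks nearest to a start site are shown by the part of their window that lies upstream of it, 137 bases for Olfr124 and 120 bases for Olfr1036. Neither holds a GGAA core:
Olfr124, WT list, chr17:37799750-37799886: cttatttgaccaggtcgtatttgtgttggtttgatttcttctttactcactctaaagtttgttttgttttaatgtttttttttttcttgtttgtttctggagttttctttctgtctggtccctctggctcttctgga
Olfr1036, KO list, chr2:86073871-86073990: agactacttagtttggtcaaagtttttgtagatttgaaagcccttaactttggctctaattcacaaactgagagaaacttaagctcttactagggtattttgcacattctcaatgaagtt

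Olfr1012 carried the closest WT and KO peaks of the family, 587 bp apart, so both of its windows are shown. They cover different bases and hold 1 GGAA core each:
Olfr1012, WT list, chr2:85759915-85760115: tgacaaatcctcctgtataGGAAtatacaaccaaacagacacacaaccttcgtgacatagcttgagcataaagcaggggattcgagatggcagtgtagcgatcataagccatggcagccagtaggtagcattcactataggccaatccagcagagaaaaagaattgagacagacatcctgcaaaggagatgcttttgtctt
Olfr1012, KO list, chr2:85760741-85760941: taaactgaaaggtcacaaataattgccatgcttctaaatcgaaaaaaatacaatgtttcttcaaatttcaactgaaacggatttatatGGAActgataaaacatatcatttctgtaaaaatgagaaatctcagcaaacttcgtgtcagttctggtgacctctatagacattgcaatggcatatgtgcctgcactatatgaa

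The WT and KO lists named almost as many olfactory receptor peaks, at different places. The members were 75 of 5288 autosomal peaks in WT (1.42%, exact Clopper-Pearson 95% interval 1.12 to 1.77) and 78 of 5117 in KO (1.52%, 1.21 to 1.90). The ratio of WT to KO members was 0.962 (exact conditional interval 0.691 to 1.34), beside 1.03 (0.994 to 1.07) for all autosomal peaks. Not even 1 bp of any member was covered by a peak from the other genotype. That is 0 of 75 members in WT, which allows a share of up to 4.80%, and 0 of 78 in KO, which allows up to 4.62%. The background was the same: 99.0% of all autosomal WT peaks and 98.9% of all autosomal KO peaks had no overlap. Within 10000 bp of a peak of the other list lay 5 WT members (6.67%, 2.20 to 14.9), beside 7.09% of all autosomal WT peaks, and 5 KO members (6.41%, 2.11 to 14.3), beside 7.47% of all autosomal KO peaks.

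The members named 141 Olfr genes, 73 in WT and 75 in KO, and 7 genes were named in both lists (9.59% of the WT and 9.33% of the KO genes). The same share over all autosomal genes was not computed, so whether these shares are high or low was not tested. At Olfr1012, a class II receptor gene on chromosome 2, the WT peak had a pileup of 6 fragments and a fold enrichment of 3.50 over background. The KO peak had 7 fragments and a fold of 3.45. Pileup and fold are as the authors give them. The WT peak fell in an exon, 2751 bp past the start site, and the KO peak in an intron, 1925 bp past it. At Olfr838-ps1, a pseudogene on chromosome 9, the peaks lay 1899 bp apart, with folds of 2.99 in WT and 2.99 in KO. At Olfr1288 on chromosome 2 they were 2443 bp apart, with folds of 3.98 in WT and 3.01 in KO. Olfr1555-ps1 on chromosome 19 had peaks 5391 bp apart, with a fold of 2.97 in WT and 3.94 in KO. For Olfr166, Olfr56 and Olfr292 the gaps were 10.5, 11.7 and 15.8 kb. In none of the 7 genes did both genotypes give a peak at the same bases.

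Olfr56 is the member that shares its locus with genes of the macrophage interferon response. Its WT peak (fold 3.32, pileup 6) lay in an Olfr56 intron, and the nearest start site was that of Tgtp2, an interferon-inducible GTPase. Its KO peak (fold 3.90, pileup 7) lay in an intron of Olfr56 and of Ifi47, another interferon-inducible GTPase, 2312 bp past the Ifi47 start. Olfr56 was a member through the gene feature it touched, not through its nearest gene. So were Olfr1116 and Olfr872 in WT and Olfr1358 in KO, whose nearest start sites belonged to predicted genes. All other members, 72 in WT and 76 in KO, had an Olfr gene as nearest gene, and 36 WT and 38 KO members touched an Olfr feature.

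Where the members lie is largely fixed by their choice, since they were named by Olfr genes and the clusters are built from the same genes. GENCODE M21 lists 1399 autosomal Olfr genes on 18 chromosomes, none of them on chromosome 18, and 8 more on X, which the choice of members left out. With a gap of at most 1 Mb between neighbours they fall into 61 runs, 23 of which hold 10 or more genes and together 1297 genes (92.7%). All runs together span 34.7 Mb, 1.41% of the autosomes. Chromosomes 2, 7 and 9 carry 59.8% of the genes, and they held 48 of 75 WT members (64%) and 45 of 78 KO members (57.7%). Cluster spans contained 71 of 75 WT members (94.7%, 86.9 to 98.5) and 77 of 78 KO members (98.7%, 93.1 to 100). The WT members of Olfr267, Olfr289-ps1 (2 peaks) and Olfr292 and the KO member of Olfr719-ps lay outside the spans.

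The largest cluster, with 287 genes on chromosome 2 (85330779 to 90403897, Olfr987 to Olfr1274-ps), held 18 WT and 9 KO peaks, of which 16 and 8 were members. The ratio of WT to KO peaks there was 2.00 with an interval of 0.853 to 5.05, which includes 1. The class I cluster on chromosome 7 (102476579 to 105369355, 156 genes) held 9 WT and 5 KO peaks, all of them members. Its peak density relative to the other clusters was 1.24 (0.547 to 2.47) in WT and 0.579 (0.184 to 1.40) in KO, and both intervals include 1. The cluster of 123 genes on chromosome 9 (37708964 to 40190134) held 7 WT and 9 KO peaks, and the 91 genes on chromosome 19 (11826803 to 13921866) had 5 and 6. The second cluster on chromosome 7 (106675005 to 108894420, 80 genes) went the other way from the first, with 5 WT and 10 KO peaks and a ratio of 0.50 (0.134 to 1.61). The cluster of 67 genes on chromosome 10 (128989431 to 130214403) had no WT peak and 5 KO peaks. A count of 0 in that span still allows 3.01 WT peaks per Mb, and the KO density was 4.08 per Mb (1.33 to 9.53), so the intervals overlap. Each of the 23 clusters had a peak of some kind in KO, 16 of them also in WT. Member peaks were found in both lists in 13 clusters, in KO only in 8 and in WT only in 2. The clusters with members in a single list held 1 to 4 members each, and the intervals of their WT to KO peak ratios include 1. Whether KO members were spread over more clusters was not tested.

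**Figure D1:**
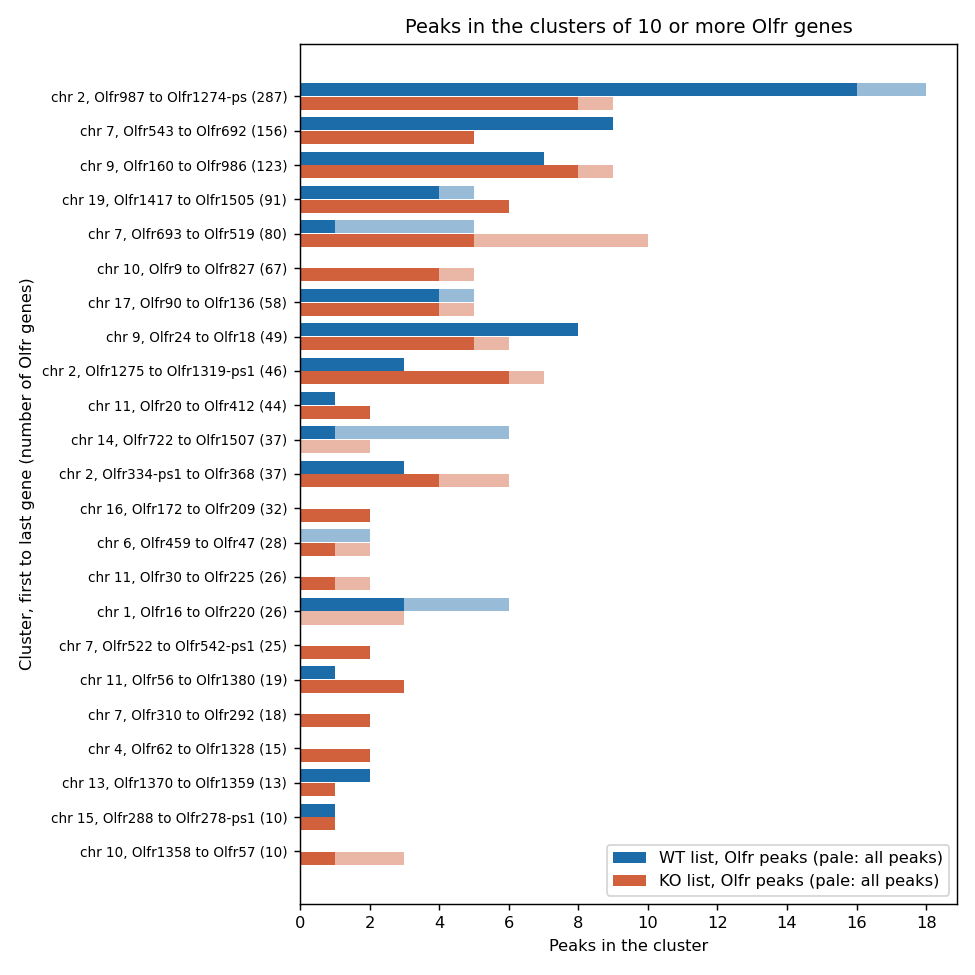
Peaks in each of the 23 clusters of 10 or more Olfr genes, ordered by gene number, which stands in brackets after the first and last gene. The horizontal axis counts peaks of 1 IP library per genotype, blue for WT and orange for KO, and the dark part of each bar counts Olfr members; the cluster of 287 genes reaches 18 WT and 9 KO peaks and the cluster of 67 genes on chromosome 10 has KO peaks only.

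**Figure D2:**
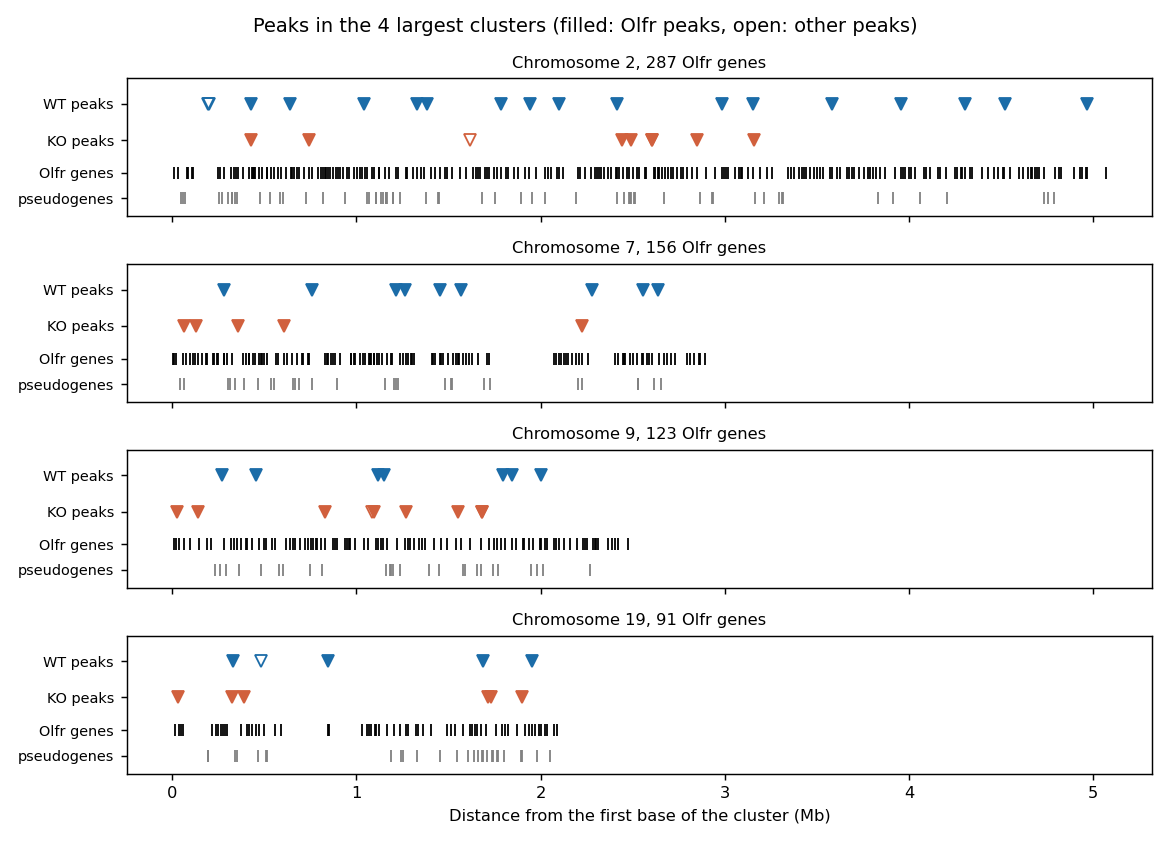
Position of peaks in the 4 largest clusters, as distance in Mb from the first base of the cluster. Triangles are WT (blue) and KO (orange) peaks, filled for Olfr members and open for other peaks, and ticks are start sites of Olfr genes (black) and pseudogenes (grey); no WT and KO peaks overlap, and in the largest cluster KO peaks lie between 0.43 and 3.16 Mb while 5 WT peaks lie beyond.

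Peak density was higher inside the clusters than outside in KO, and not beyond counting error in WT. In WT, 89 peaks in the spans gave 2.56 peaks per Mb, against 2.14 outside, a ratio of 1.20 (0.959 to 1.48). In KO, 100 peaks gave 2.88 per Mb against 2.07, a ratio of 1.39 (1.13 to 1.70). The intervals of the ratios overlap, and their difference was not tested. Olfr clusters are poor in G and C: 100 kb windows had a median GC content of 38.9% inside and 41.5% outside. Outside the clusters, the density of peaks itself changed with GC, from 3.72 per Mb in WT and 2.87 in KO in windows of 36 to 38% GC to 1.27 and 1.44 per Mb at 42% or more. In windows under 36% GC the ratio of inside to outside was 0.447 (0.0538 to 1.64) in WT, from 2 peaks, and 1.05 (0.282 to 2.73) in KO, from 4. At 36 to 38% it was 0.924 (0.634 to 1.31) in WT and 1.05 (0.702 to 1.52) in KO, and at 38 to 40% it was 0.907 (0.625 to 1.27) and 1.16 (0.819 to 1.61). At 40 to 42% it was 1.28 (0.676 to 2.19) in WT and 0.774 (0.353 to 1.48) in KO. At 42% or more it was 1.27 (0.609 to 2.35) in WT and 1.79 (1.02 to 2.92) in KO, from 16 KO peaks in 6.2 Mb, the single class whose interval excludes 1. The part of base composition in the density was not tested further. With a limit of 4 on the authors' −log10 p the KO ratio over all windows was 1.07.

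**Figure D3:**
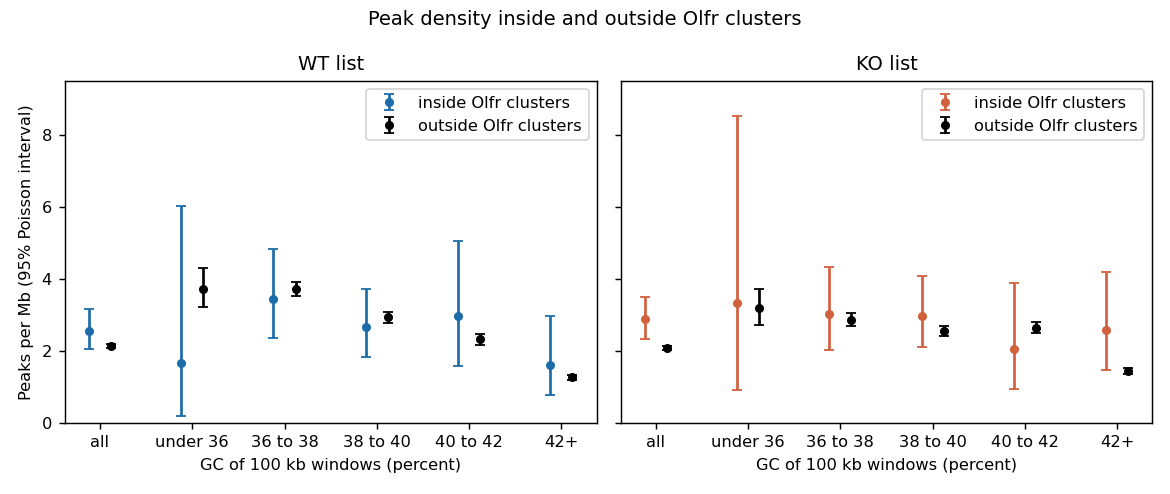
Peaks per Mb inside Olfr cluster spans (coloured) and outside (black), for all autosomes and for classes of GC content of 100 kb windows, with the WT list on the left and the KO list on the right. Points are densities and bars exact 95% Poisson intervals; over all windows the KO intervals inside and outside do not overlap, and within each GC class they overlap in both lists.

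Not every peak in a cluster was an Olfr peak. Of the peaks in the spans, 18 of 89 in WT (20.2%) and 23 of 100 in KO (23.0%) named other genes. By the authors' features 10 of these in WT and 14 in KO were intergenic. Some lay at genes embedded in the clusters, of which 3 are named as examples after their values were seen. Ubd, a ubiquitin-like modifier of the immune response, had a WT peak 233 bp past its start (fold 4.00, pileup 7) in the cluster on chromosome 17. In the same cluster a KO peak (fold 3.90, pileup 7) lay 8274 bp past the start of H2-M2, a class Ib histocompatibility gene. Syt9, a synaptotagmin gene, had a WT peak (fold 4.00) and a KO peak (fold 3.32) in the second cluster on chromosome 7.

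Member peaks were shallow, like most peaks of the lists. The median pileup was 6 fragments in both lists, with a range of 5 to 12 in WT and 5 to 11 in KO. All autosomal peaks had medians of 6 in WT and 7 in KO, and reached 31738 and 34053 fragments. A pileup of 8 or less was found in 92.0% of WT and 94.9% of KO members, beside 90.6% and 88.3% of autosomal peaks. The median fold was 3.48 (interval of the median 3.35 to 3.50) in WT and 3.42 (3.31 to 3.42) in KO, beside 3.50 and 3.42 for all autosomal peaks. The folds sit on few values: the fragments are whole numbers, and the derived background is often at its lowest level. That held for 25 of 75 WT members (33.3%) and 33 of 78 KO members (42.3%), beside 33.6% and 46.4% of autosomal peaks. The background was derived here from pileup and fold, on the assumption that a constant had been added to both counts. An authors' q below 0.05 was reached by 4 WT members (5.33%, 1.47 to 13.1) and 2 KO members (2.56%, 0.312 to 8.96), and by 5.16% of autosomal WT and 5.73% of autosomal KO peaks. An authors' −log10 p of 4 or more was found in 40 WT members (53.3%, 41.4 to 64.9) beside 64.2% of autosomal WT peaks, and in 27 KO members (34.6%, 24.2 to 46.2) beside 46.8% of autosomal KO peaks. The KO share lies below its background by a margin just outside its interval, the WT share by one inside it. The most common member fold was 3.50 in WT, where its −log10 p was 4.08, and 3.42 in KO, where it was 3.95, so the limit of 4 keeps the commonest kind of peak in WT and drops it in KO.

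The strongest WT member lay 10626 bp upstream of Olfr881 on chromosome 9, with a pileup of 11, a fold of 5.72 and an authors' q of 2.9e-04. Its nearest KO peak was 131 kb away. The second lay 3735 bp upstream of Olfr267 on chromosome 4, with 12 fragments, a fold of 5.53 and a q of 2.9e-04. Olfr289-ps1, a pseudogene on chromosome 3, had 2 WT peaks, 22.0 and 18.9 kb past its start, with folds of 4.68 (q of 0.0165) and 3.50. The peak of Olfr965 on chromosome 9 lay in its intron, 1063 bp past the start (fold 4.64, q of 0.0301). In KO the highest fold was 5.24 (11 fragments, q of 0.00167) at Olfr821 on chromosome 10, 9408 bp past its start. Olfr1331 on chromosome 4 followed with 4.81 (9 fragments, q of 0.0179), 9544 bp past its start. None of the 6 peaks with q below 0.05 was within 1000 bp of a start site, and none had a peak of the other genotype within 100 kb.

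The next members in WT were Olfr681 (fold 4.44), Olfr731 (4.41), Olfr124 (4.39) and Olfr48 (4.19), all with 8 or 9 fragments. Behind them, 5 WT peaks tied at 4.00 with 7 fragments, at Olfr1370, Olfr1564, Olfr259, Olfr26 and Olfr958. In KO, Olfr794, Olfr1482-ps1, Olfr1155 and Olfr1301 tied at 4.39 with 8 fragments, followed by Olfr270 (4.36), Olfr870 (4.15), Olfr1555-ps1 (3.94), and by 5 peaks tied at 3.90 at Olfr56, Olfr193, Olfr719-ps, Olfr565-ps1 and Olfr910. The peaks of Olfr731 and Olfr1370 touched the 3′ UTR of the same gene, and this peak of Olfr124 touched the 3′ UTR of its neighbour Olfr123.

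**Figure D4:**
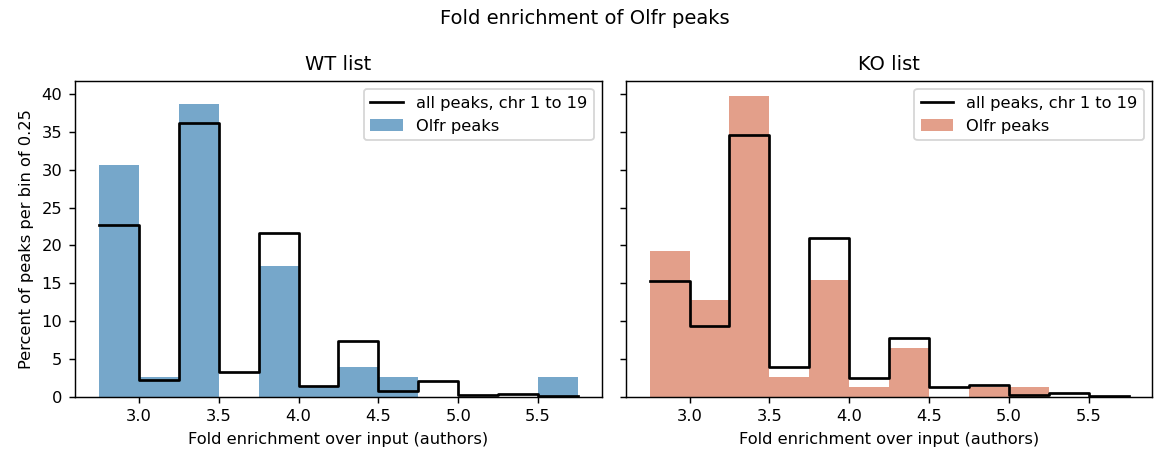
Share of peaks by the authors' fold enrichment, in bins of 0.25, for Olfr members (bars) and all autosomal peaks (black line), WT on the left and KO on the right. The axis names input, where the deposited value is a ratio over background. Members fill the same few values as the rest, most of them below 4.5; 1.70% of autosomal WT and 1.95% of autosomal KO peaks lie outside the plotted range and no member does.

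Member peaks lay closer to a start site than the average peak, in clusters where start sites are dense. The median distance from the peak midpoint to the start of the nearest Olfr gene was 3772 bp (2795 to 4388) in WT and 4846 bp (3872 to 6616) in KO, beside 28858 and 28499 bp to the nearest gene for all autosomal peaks. Neighbouring start sites in clusters of 10 or more genes are a median of 16.8 kb apart (quartiles 10.6 and 26.2). Within 1000 bp of the start lay 12 of 72 WT members (16.7%, 8.92 to 27.3) and 7 of 76 KO members (9.21%, 3.78 to 18.1), beside 2.74% of autosomal WT and 2.56% of autosomal KO peaks. The choice by nearest gene favours short distances, so all peaks of the spans were also set against the bases near any Olfr start. Bases within 1000 bp of one make up 7.86% of the spans, and there lay 12 of 89 peaks in WT (13.5%, 7.17 to 22.4) and 7 of 100 in KO (7.0%, 2.86 to 13.9). The density near starts relative to the rest of the spans was 1.83 (0.904 to 3.38) in WT and 0.882 (0.345 to 1.89) in KO. Within 5000 bp, which covers 36.6% of the spans, it was 1.86 (1.20 to 2.88) for the 46 of 89 in WT and 1.16 (0.755 to 1.75) for the 40 of 100 in KO. The interval excludes 1 at 5000 bp in WT and at neither distance in KO, and the difference between the genotypes was not tested.

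The WT peaks within 1000 bp of a start were at 12 genes. Upstream lay those of Olfr124 (37 bp), Olfr1479-ps1 (111 bp), Olfr259 (151 bp), Olfr1249 (329 bp) and Olfr1275 (633 bp). Past the start lay those of Olfr873 (65 bp), Olfr1184 (235 bp), Olfr1174-ps (294 bp), Olfr958 (442 bp), Olfr626-ps1 (646 bp), Olfr676 (679 bp) and Olfr1139-ps1 (889 bp). Their folds ran from 2.94 at Olfr626-ps1 to 4.00 at Olfr259 and Olfr958. The 7 KO peaks were at Olfr1036 (20 bp upstream), Olfr1301 (475 bp upstream), Olfr794 (967 bp upstream), Olfr1147-ps1 (347 bp past the start), Olfr706 (655 bp), Olfr127 (820 bp) and Olfr703 (989 bp). Their folds ran from 3.01 at Olfr794 and Olfr1147-ps1 to 4.39 at Olfr1301. No gene appears in both sets. RefSeq places some starts elsewhere, so these distances depend on the authors' annotation. The WT peak beside Olfr1139-ps1 covered 112 bp of a RefSeq promoter of Olfr1140, where the authors' features give an Olfr1140 intron. The KO peak of Olfr703 covered 129 bp of an Olfr703 promoter as RefSeq places it. The WT peak of Olfr1442, 3270 bp past the authors' start, covered 5 bp of a RefSeq promoter of Olfr1442.

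**Figure D5:**
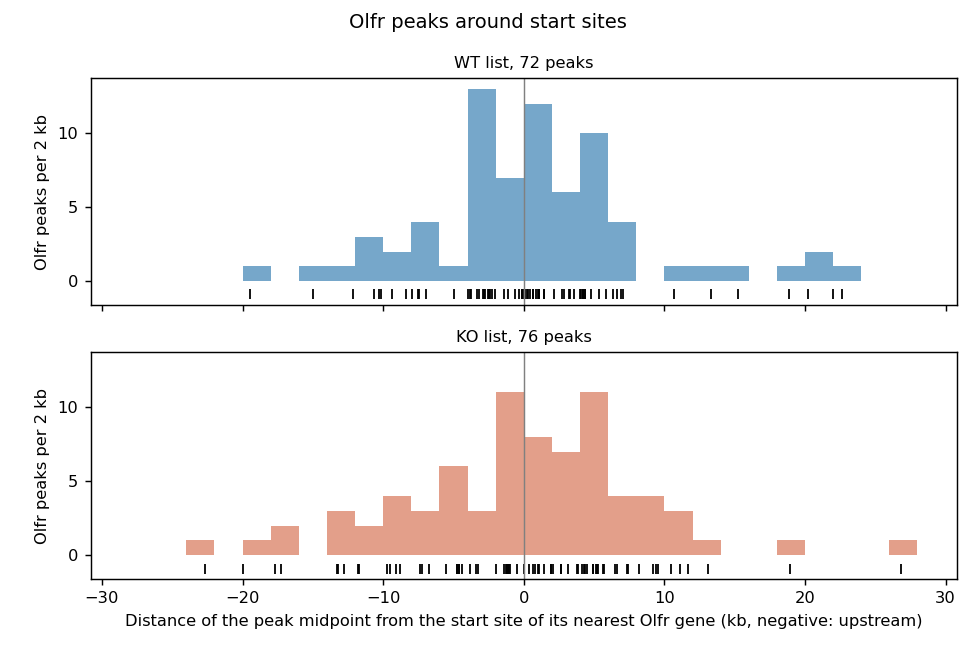
Distance in kb from the midpoint of each Olfr peak to the start site of its nearest Olfr gene, negative upstream, as counts per 2 kb with a tick per peak. The WT list (72 peaks) is above and the KO list (76 peaks) below; peaks lie on both sides of the start, with medians of 3772 bp in WT and 4846 bp in KO without regard to side.

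By the authors' gene features, 39 WT members (52.0%) and 39 KO members (50.0%) were intergenic, beside 56.8% and 57.6% of autosomal peaks. Introns held 18 (24%) and 16 (20.5%), beside 38.3% and 37.9%, and promoters 7 (9.33%) and 11 (14.1%), beside 2.80% and 2.46%. Among the KO promoter members, that of Olfr1358 touched the promoter of Gm25164 and only an intron of Olfr1358. Promoter members with an Olfr nearest gene lay up to 1438 bp upstream of its start in WT and 1434 bp in KO. The class therefore differs from the count within 1000 bp. Exons and UTRs held 11 WT members (14.7%, 7.56 to 24.7) and 12 KO members (15.4%, 8.21 to 25.3), beside 2.17% and 2.05% of all autosomal peaks. The choice of members by gene feature favours genic classes, so these shares are a description. The peak midpoint was upstream of the nearest Olfr start in 33 of 72 WT (45.8%) and 36 of 76 KO members (47.4%), beside 46.9% and 47.3% of autosomal peaks.

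Some receptors with a known biology were among the members, and they are named here after their values were seen. Olfr17, the P2 receptor used in studies of receptor choice, had a KO peak in its 5′ UTR with a pileup of 5 and a fold of 2.88. Olfr151, known as M71, had a KO peak 1263 bp upstream of its start (fold 3.65, pileup 7). Olfr2, the octanal receptor I7 that has also been described in vascular macrophages, had a KO peak 9072 bp upstream (fold 3.42, pileup 6). Olfr560 and Olfr78, class I receptors, shared a WT peak in an intron (fold 2.94, pileup 5). Each of these peaks had 7 fragments or fewer and no overlap in the other list. The same lack of overlap held for all members and for 99.0% of autosomal WT and 98.9% of autosomal KO peaks.

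Pseudogenes and other receptor genes were named about equally often. Of the genes whose symbol ends in -ps and digits, 15 of 279 had a WT member (5.38%, 3.04 to 8.71), beside 58 of 1120 other Olfr genes (5.18%, 3.96 to 6.64). In KO the counts were 12 of 279 (4.30%, 2.24 to 7.39) and 63 of 1120 (5.62%, 4.35 to 7.14). The ratio of these shares was 1.04 (0.546 to 1.86) in WT and 0.765 (0.375 to 1.43) in KO. By fold, the first pseudogenes in WT were Olfr289-ps1 (4.68), Olfr29-ps1 (3.98), Olfr336-ps1 (3.94), Olfr1479-ps1 (3.50), Olfr364-ps1 (3.50) and Olfr831-ps1 (3.50). In KO they were Olfr1482-ps1 (4.39), Olfr1555-ps1 (3.94), Olfr565-ps1 (3.90), Olfr1493-ps1 (3.87), Olfr1185-ps1 (3.87) and Olfr712-ps1 (3.77). The lowest folds were 2.94 in WT (Olfr626-ps1) and 2.99 in KO (Olfr838-ps1). Median fold was 3.40 in pseudogene and 3.50 in other WT members, and 3.59 and 3.42 in KO. Pseudogene peaks lay in more repeat sequence: the median soft-masked share was 41.0% against 19.4% in other WT members, and 63.7% against 28.4% in KO.

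Members rich in repeat sequence were more numerous in the KO list, with shares whose intervals overlap. More than 50% of the peak was soft-masked in 18 WT members (24%, 14.9 to 35.3) and 29 KO members (37.2%, 26.5 to 48.9), beside 25.7% and 29.3% of autosomal peaks. Cluster spans are richer in repeats (45.2% of bases) than the autosomes (33.5%). A near-identical copy, of at least 90% identity over at least 80% of the peak, was found elsewhere in the cluster spans for 11 WT members (14.7%, 7.56 to 24.7) and 23 KO members (29.5%, 19.7 to 40.9). Of these, 8 in WT and 19 in KO were mostly soft-masked. Among the peaks of the spans that were no members, 1 of 18 in WT (5.56%, 0.141 to 27.3) and 11 of 23 in KO (47.8%, 26.8 to 69.4) had such a copy, so the higher KO share was not limited to members. A copy identical over the full length of the peak was found for 3 WT and 8 KO members. By the limits of 90% identity and 80% of the peak, Olfr631 in WT had 1041 near-identical copies. Olfr821, the strongest in KO, had 1035 by the same limits. Whether reads from such sites were placed uniquely was not tested, and how the authors treated reads with several matches is not given in the sources used here. Without the members that have a near-identical copy the counts were 64 in WT and 55 in KO, a ratio of 1.16.

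The share of members with an ETS core was near or below that of all peaks. A GGAA core on either strand within 100 bp of the midpoint was found in 58 of 75 WT members (77.3%, 66.2 to 86.2), beside 86.6% of autosomal WT peaks. In KO it was found in 69 of 78 (88.5%, 79.2 to 94.6), beside 88.3%. The WT share was the lower, and WT members also had the lower GC content, with a median of 34.2% beside 37.2% in all autosomal WT peaks; in KO the medians were 38.3% and 39.0%. The part of base composition in that difference was not tested. CCGGAAGT, which contains the core, was in 0 of 75 and 0 of 78 members, which allows 4.80% and 4.62%, and in 0.113% of autosomal WT and 0.0977% of autosomal KO peaks. The homeodomain site TAATTA was in 9 members of each list (12% in WT, 11.5% in KO), beside 9.97% and 8.50% of autosomal peaks. The EBF site, TCCC and GGGA with a gap of 2 bases, was in none, beside 0.151% and 0.137%.

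Over the promoters of the family, the homeodomain site was more frequent and CCGGAAGT less frequent than over all promoters. RefSeq promoters of GRCm38, 250 bases before to 50 after a start, were found for 938 of 1399 autosomal Olfr symbols. Over 942 Olfr promoters, TAATTA was in 176 (18.7%), beside 5.29% of all 32851 promoters in the table. The EBF site was not more frequent: it was in 5 of 942 (0.531%), beside 0.904% of all promoters. CCGGAAGT was in 0 of 942 and in 3.89% of all promoters, and a GGAA core was in 96.1% and 96.0%. The median GC content of Olfr promoters was 35.0%, and that of all promoters 52.7%. A match of these letters describes the window and says nothing of binding.

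Genes that act with the receptors, and other families of the olfactory system, were looked up in the same way. Of 18 genes of olfactory signal transduction, 4 were nearest to a WT peak (22.2%) and 2 to a KO peak (11.1%), beside 8.39% and 8.21% of all autosomal genes. They were Rgs2, a regulator of G protein signalling, and Ric8b, a chaperone of the olfactory G protein, in both lists, and Pde1c, a phosphodiesterase, and Cngb1, a subunit of the cyclic nucleotide-gated channel, in WT. No peak of this list lay within 1000 bp of a start; the closest was a KO peak 2905 bp upstream of Rgs2 (fold 3.87). Of 24 genes of receptor trafficking and choice, none was nearest to a WT peak and 1, Tshz1, to a KO peak. Of 16 trace amine receptors, a related receptor family, Taar7c-ps had a WT peak 460 bp upstream of its start (fold 2.98). Taar1 and Taar8a were nearest to KO peaks. Of 8 formyl peptide receptors Fpr-rs4 was nearest to a WT peak, and of 19 Ms4a genes Ms4a4b to a KO peak. None of 7 beta-globin genes in the region of the class I cluster was nearest to a peak in either list. Among 69 Trim genes, some of which border receptor clusters, 5 were nearest to a WT peak (7.25%) and 1 to a KO peak (1.45%). The shares over all autosomal genes were 8.39% and 8.21%. None of these Trim peaks lay within 1000 bp of a start, and the difference between the lists was not tested. Of 6 markers of olfactory sensory neurons none was nearest to a peak in either list, and of 8 macrophage markers Adgre1 was, in WT, with a peak 10.2 kb past its start (fold 2.89). Of autosomal protein-coding genes 5.98% were nearest to a WT peak and 5.90% to a KO peak, and of Olfr genes 5.0% and 5.22%.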

How the data were processed

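Peak lists of the 2 ELF1 IP libraries were analysed, 1 WT and 1 Elf1 KO, grouped by the sample titles. Upstream, per the series' design text and the submitters' processing notes, reads were filtered with Trimmomatic 0.36, aligned to GRCm38 by Bowtie2 and freed of duplicates with SAMtools. Which program called and annotated the peaks, and at which threshold, is not given in the sources used here. Per the file headers, a deposited peak has a pileup signal, a fold enrichment (a ratio over background), a −log10 p and a −log10 q; these served to describe and filter peaks within a list. The lowest deposited −log10 p on the autosomes was 3.01 in WT and 3.00 in KO. Library totals are not in the lists, so depth is unknown.

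Coordinates are GRCm38, 1-based. Members' genes were matched to GENCODE M21 by identifier, and the authors' distance was checked to be that of the peak midpoint within 2 bp. An overlap is 1 bp or more. Clusters are runs of Olfr genes with gaps of at most 1 Mb. Repeats come from soft-masking of the reference and copies from blastn 2.17.0. Shares carry exact Clopper-Pearson, densities exact Poisson, ratios exact conditional and medians order-statistic 95% intervals (Python 3.11.15, numpy 2.4.6, pandas 2.3.3, scipy 1.17.1, matplotlib 3.10.9). The functions were tested on simulated data.

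Genes were named by a rule: Olfr genes with a peak within 1000 bp of the start or a peak in both lists, the 10 members of highest fold per list, members with q below 0.05, and up to 10 pseudogenes per list. Members, gene lists and tests were chosen with earlier results of these data known. Alternatives were limits on p and q, either gene column alone, leaving out repeat-rich peaks, other overlap and distance limits, other cluster gaps and other pseudogene definitions. Near-identical copies, symbols ending in -ps alone and the density around start sites were added after the data were seen.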

Additional observations from a re-analysis of the deposited data

How the results depend on the processing

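Of 100 alternative values over 17 results, 68 stayed within the interval of the reported value (or within 1.5 times a count), and 32 moved. The ratio of WT to KO members, 0.962 with an interval that includes 1, was above 1 under 4 alternatives: at the limits on p and q below, without peaks over 50% soft-masked (1.16) and without peaks that have a near-identical copy (1.16). Over all autosomal peaks the limit on p kept 3394 in WT and 2397 in KO, so that shift is list-wide. The limit on q kept 273 and 293 autosomal peaks, and its member ratio rests on 4 and 2 peaks. For the alternatives on repeats and copies the ratio over all autosomal peaks was not computed. The WT ratio of shares of pseudogenes, 1.04, was 0.988 by biotype, and its interval too includes 1. With the authors' −log10 p at 4 or more, members numbered 40 in WT and 27 in KO (ratio 1.48), median pileup was 7 in both lists, median fold 3.84 in WT and 3.90 in KO, and the KO density ratio 1.07. With q below 0.05, members numbered 4 and 2 (ratio 2.00), median pileup was 10.5 and 10, median fold 5.11 and 5.03, median distance 7180 and 9476 bp, and 0 peaks in either list lay within 1000 bp of a start. By the gene feature column alone there were 36 WT and 38 KO members, with a median KO fold of 3.31. Distances were taken for the 33 WT and 36 KO of these that had an Olfr gene as nearest gene. Of them 33.3% and 19.4% lay within 1000 bp of the start, and the median distances were 1438 and 2004 bp. Without peaks over 50% soft-masked, 49 KO members were left, and those with an Olfr gene as nearest gene lay at a median distance of 3255 bp. A limit of 5000 bp in place of 1000 bp held 65.3% of the WT and 52.6% of the KO members with an Olfr gene as nearest gene. Counting peaks within 10000 bp as shared left 93.3% of WT and 93.6% of KO members without a counterpart. No paired analysis was possible because each genotype has 1 IP library, and for the same reason no library could be left out. Pileups of 5 to 12 fragments limit what any single member shows, and differences between the lists cannot be told apart from differences between these libraries.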
